A study of Mus musculus with 16 samples.

Results

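The 3045 regions described here held a DNase I island in every DNase library of a Th2 culture except those of the late Bcl11b knockouts. They were found by merging the DNase islands of all 8 DNase lists wherever islands overlapped or touched, which gave 47976 regions. Kept were the regions with an island in both early WT, both early KO and both late WT lists and in neither late KO list. They made up 6.35% of all regions, against 38 regions missing only in late WT (0.0792%), 28 missing only in early KO (0.0584%) and 45 missing only in early WT (0.0938%). The regions were thus chosen by the presence of DNase islands in the 8 lists, so their DNase values are a description without a test. The H3K27ac libraries were separate and did not enter the choice.

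The late KO cells were CD4 T cells of C57BL/6 mice with the genotype Bcl11b fl/fl-CreERT2 that were cultured under Th2 conditions for 4 days, rested for 1 day in IL-2 medium and were cultured again under Th2 conditions for 4 days, now with 4-OHT. The late WT cells had the same genotype and the same schedule without 4-OHT. The early KO cells were given 4-OHT during the first 4 days under Th2 conditions and taken at their end, and the early WT cells were taken at the same time without it. All groups carried the floxed alleles and the inducible Cre, and no cells without the inducible deletion received 4-OHT, so loss of Bcl11b and exposure to 4-OHT cannot be told apart. By the labels the starting cells were naive, yet the same labels describe sorting for high CD44. Each group had 2 libraries of each assay, 16 in all, and no label says that the replicates were separate cultures or animals, so the p-values below measure only the spread between these libraries, which may be technical.

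DNase I cuts DNA where nucleosomes are displaced, so DNase-seq islands mark open promoters, enhancers and other regulatory sites. Acetylation of histone H3 at lysine 27 (H3K27ac) marks promoters and enhancers in an active state, usually on the nucleosomes that flank an open site. A site can be open without acetylation, as at poised or repressed elements. Bcl11b, a zinc finger protein that binds DNA, commits early thymocytes to the T lineage and recruits chromatin-modifying complexes. GATA3, named with it in the title of the series, is the factor that directs Th2 differentiation.

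The late KO DNase lists were the shortest of the 8. Replicate 1 held 18812 islands over 25.9 Mb and replicate 2 held 17397 islands over 26.2 Mb, and the other 6 lists held 24286 to 39736 islands over 31.3 to 66.8 Mb. The H3K27ac lists did not show this gap in number: the late KO lists held 27722 and 29459 islands, within the 26548 to 32112 islands of all 8. In covered length the late KO H3K27ac lists were the extremes. Replicate 1 covered 111.7 Mb and replicate 2 covered 100.9 Mb, against 102.1 to 108.2 Mb in the other 6. The lists give no read counts, so the depth behind them is unknown and an absent island says only that a list does not hold one. Whether list length sets which regions are missing was not tested, and the counts with lists of equal length are given below. Genes, cell type markers and the deleted part of Bcl11b were not analysed here by coordinate, so each region is named by its mm9 position.

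The missing regions were of moderate width and rank among open regions. Their median width was 2000 bp, with quartiles of 1600 and 2800 bp and a range of 400 to 10600 bp. The regions in all 8 DNase lists had a median width of 2800 bp, and all 47976 regions one of 1800 bp. Within each list, islands were ranked by the authors' score, with 100 for the top of the list. The mean percentile over the 6 lists that held a missing region had a median of 44.2 and ran from 8.33 to 84.8. The same mean had a median of 78.0 for the regions in all 8 lists.

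In each library separately, the median percentile of the missing regions was 30.5 and 48.6 in late WT, 26.5 and 50.7 in early KO, and 55.1 and 58.4 in early WT. For the regions in all 8 lists it was 75.3 and 81.7 in late WT, 71.4 and 81.8 in early KO, and 81.8 and 82.8 in early WT. The missing regions thus stood lower in all 6 lists, and the share of them among the highest 25% of a list was between 0.296% and 9.79%. Percentiles from lists of different length show no change between libraries.

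**Figure D1:**
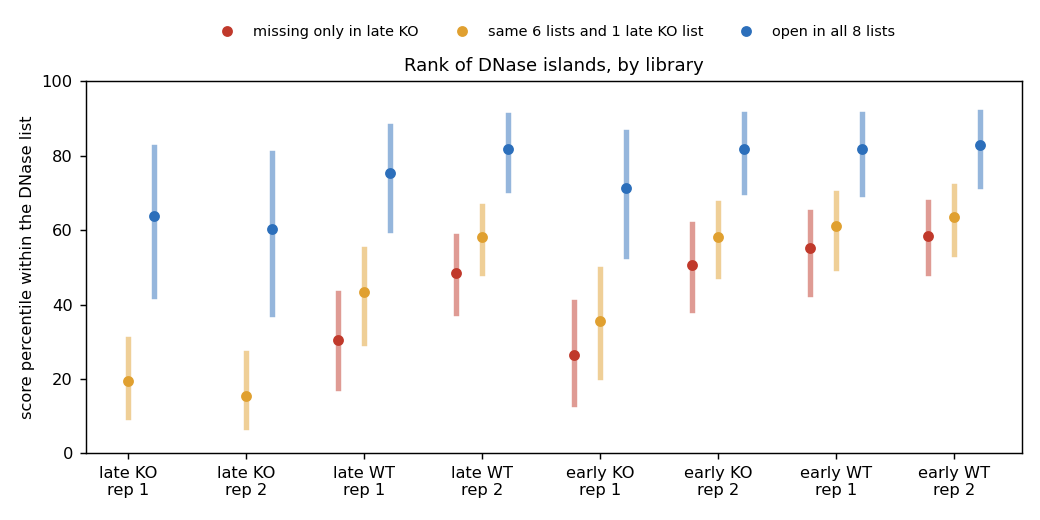
Score percentile (vertical axis, 0 to 100, within each list) of DNase islands by library and class of region, with the median and the quartiles marked. The 3045 missing regions have medians between 26.5 and 58.4 in the 6 lists that hold them, and the regions in all 8 lists have medians between 60.4 and 82.8.

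Regions just inside and just outside the rule can be set side by side. The 6 other lists together held 18691 regions, of which 13100 (70.1%) were in both late KO lists too, 2546 were in 1 late KO list and 3045 (16.3%) were in neither. Late KO replicate 1 alone held 1654 of the 2546 regions and late KO replicate 2 alone held 892. With a group judged on its other library, the 3045 became 4699 without late KO replicate 1 and 5664 without early KO replicate 1. These 2546 regions had a median mean percentile of 52.0 and a median width of 2400 bp, both between the missing regions and those in all 8 lists. In the late KO list that held them, their median percentile was 19.4 for replicate 1 and 15.3 for replicate 2. On chromosome 1 at 60464801 to 60469000 the late KO replicate 1 island covered 0.8 kb and replicate 2 had none. The late WT islands there covered 2.0 and 2.6 kb, the early KO islands 1.2 and 2.2 kb and the early WT islands 1.6 and 4.2 kb. On chromosome 9, the region at 110350801 to 110352600 was outside by 1.2 kb in late KO replicate 2, and the region on chromosome 11 at 45884401 to 45888200 by 0.6 kb in late KO replicate 1.

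At the low end of the ranks, the region on chromosome 6 at 31613201 to 31616200 had a mean percentile of 8.33 and lay 250.2 kb from the nearest late KO island. The regions on chromosome 19 at 42379801 to 42381600 and on chromosome 5 at 24107201 to 24111000 followed, at 8.79 and 9.16. None of these 3 had an H3K27ac island in any of the 8 libraries.

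At the high end, the region on chromosome 10 at 117087201 to 117090400 had the highest mean percentile, 84.8. No late KO list held an island there. Its percentile was 69.5 and 80.7 in late WT, 85.5 and 93.3 in early KO, and 90.1 and 89.8 in early WT. H3K27ac islands covered 1.4 and 2.0 kb of the 5-kb window around it in late KO, against 2.2 and 1.6 kb in late WT, 3.2 and 3.2 kb in early KO, and 1.4 and 2.8 kb in early WT. The late KO and late WT values overlapped, and the mark was called in all 8 libraries.

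Another region, on chromosome 5 at 116346401 to 116349200, had a mean percentile of 81.8 and lay 51.0 kb from the nearest late KO DNase island. Its H3K27ac coverage was 3.2 and 4.0 kb in late KO, against 5 and 4.4 kb in late WT, 3.4 and 3.4 kb in early KO, and 5 and 5 kb in early WT. The KO values were below the WT values at both stages, and only the early difference passed the test (limma adjusted p = 0.0492, against 0.248 late). The test of the difference between the stages gave an adjusted p of 0.782. A region on chromosome 17 at 73169801 to 73172600, with a mean percentile of 82.7, was the exception among the 10 highest. It had no H3K27ac island in either late KO library, 0 and 1.2 kb in late WT, 3.0 and 3.6 kb in early KO, and 3.2 and 3.2 kb in early WT. The other 9 of these 10 regions had an H3K27ac island in both late KO libraries. None of the 10 passed the test for late KO against late WT, with limma adjusted p between 0.248 and 0.948.

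The widest missing region, on chromosome 14 at 54816401 to 54827000, spanned 10600 bp. DNase islands covered none of it in late KO, against 6.6 and 8.6 kb in late WT, 2.4 and 3.6 kb in early KO, and 1.8 and 7.4 kb in early WT. H3K27ac islands filled the whole 5-kb window around its centre in all 8 libraries. The same held for the region on chromosome 14 at 75585201 to 75594000, 8800 bp wide, where DNase islands covered 4.2 and 4.6 kb in late WT. On chromosome 9 at 32565601 to 32574600, H3K27ac islands covered 3.4 and 3.2 kb in late KO, against 3.4 and 3.2 kb in late WT, 2.8 and 3.2 kb in early KO, and 1.2 and 1.2 kb in early WT. There the early KO value was higher than early WT (limma adjusted p = 0.00157), and the late and early changes differed (adjusted p = 0.0100).

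The missing regions were spread over the genome. They made up between 5.22% of the regions of chromosome 17 and 7.79% of those of chromosome 15. Among the regions held by the 6 other lists, the share ran from 12.6% on chromosome 17 to 20.2% on chromosome 15. The nearest late KO island was a median of 15.8 kb away, with quartiles of 5.6 and 39.2 kb. It lay within 5 kb of 701 missing regions (23.0%) and beyond 100 kb from 276 (9.06%).

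The next missing region was a median of 103.2 kb away, and 309 regions (10.1%) had another within 10 kb. In 19 stretches of up to 100 kb at least 4 missing regions lay together. The densest stretch, on chromosome 9 at 50270001 to 50364000, held 6 missing regions among 12 regions in all. DNase islands covered 3.2 and 2.2 kb of this stretch in late KO, against 14.8 and 12.4 kb in late WT, 11.6 and 12.4 kb in early KO, and 12.8 and 16.2 kb in early WT. H3K27ac islands covered 25.2 and 23.8 kb of it in late KO, against 27.2 and 29 kb in late WT, 25.8 and 27.6 kb in early KO, and 26.8 and 24.6 kb in early WT. Both late KO libraries had less DNase coverage there than any other library, which follows from the choice of the stretch by its missing regions. Of the late KO H3K27ac values, 1 lay below and 1 within the range of the other 6. Of the 5 missing regions tested there for H3K27ac, 1 was called lower in late KO.

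A second stretch, on chromosome 3 at 52646401 to 52736000, held 5 missing regions of 7. DNase islands covered 1 kb of it in each late KO library, 9.4 and 7.6 kb in late WT, 7.8 and 6.2 kb in early KO, and 7.6 and 9.2 kb in early WT. Its H3K27ac coverage was 16 and 14.8 kb in late KO, against 16.8 and 20.6 kb in late WT, 14.8 and 16 kb in early KO, and 18 and 15.6 kb in early WT. On chromosome 6 at 65448201 to 65536600, with 5 missing regions of 8, H3K27ac coverage was 13 and 10 kb in late KO, against 7.6 and 11.4 kb in late WT, 19.4 and 23 kb in early KO, and 13 and 14.2 kb in early WT. The early KO libraries stood above the others there, and late KO overlapped late WT.

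Most missing regions carried H3K27ac in late KO cells. An H3K27ac island lay in the 5-kb window centred on the region for 74.8% and 75.6% of the 3045 in the late KO libraries, and for 73.6% and 78.9% in the late WT libraries. In the early KO libraries the share was 81.5% and 76.8%, and in the early WT libraries 69.0% and 72.3%. The late KO shares lay between the late WT shares. As means, the share was 75.2% ± 0.58 in late KO, 76.3% ± 3.72 in late WT, 79.2% ± 3.27 in early KO and 70.7% ± 2.35 in early WT (SD, n = 2 each). With 2 libraries per group an exact permutation test cannot pass 0.05, so no test of these shares is given.

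Over all 47976 regions the share was 64.4% and 64.9% in late KO, 60.8% and 65.5% in late WT, 67.9% and 64.2% in early KO, and 57.9% and 60.0% in early WT. Over the regions in all 8 DNase lists it was between 92.3% and 97.1%. The missing regions therefore lay between these sets in every library. An H3K27ac island was present in both late KO libraries for 2228 of the 3045 regions (73.2%, against 62.6 percent of all regions). It was present in both late WT libraries for 2218 (72.8%, against 60.1 percent of all regions).

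**Figure D2:**
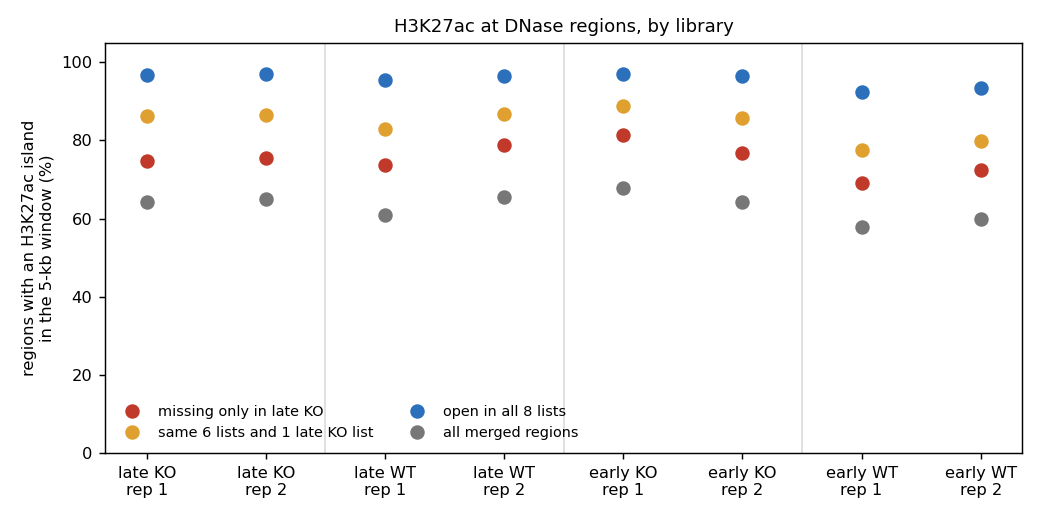
Percent of regions (vertical axis, from 0) with an H3K27ac island in the 5-kb window around them, for each of the 8 H3K27ac libraries, for the missing regions, the regions in all 8 DNase lists and all regions. Late KO stands at 74.8% and 75.6% for the missing regions, between the late WT values of 73.6% and 78.9%.

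Few regions followed the DNase pattern of the rule in H3K27ac, among the missing regions as among all regions. An island in both late WT and neither late KO library was found at 58 regions, 1.90% of the 3045, against 1.73 percent of all regions. The reverse, both late KO and neither late WT, was found at 34, or 1.12%, against 3.0 percent of all regions. In the same order, the shares were 0.707% and 1.53% of the regions in the same 6 DNase lists and 1 late KO list. They were 0.176% and 0.710% of the regions in all 8 DNase lists. The full pattern of the DNase rule, present in the 6 other libraries and absent in both late KO, was met in H3K27ac by 23 regions, or 0.755%, against 0.434 percent of all regions. In the early libraries, both KO and neither WT held an island at 189 regions (6.21%, against 6.28 percent of all regions), and both WT and neither KO at 16 (0.525%, against 1.41 percent). H3K27ac islands were found in all 8 libraries at 1859 regions (61.1%, against 49.7 percent of all regions) and in none at 406 (13.3%, against 23.6 percent). The other 780 regions (25.6%) had one in 1 to 7 libraries. The 58 became 134 without late WT replicate 1 and 90 without late KO replicate 2, and the 34 became 113 without late WT replicate 2 and 55 without late KO replicate 1.

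The acetylated missing regions ranked higher in the DNase lists than the rest. The median of the mean DNase percentile was 45.9 for regions with H3K27ac in all 8 libraries, 42.9 for those with it in 1 to 7, and 37.5 for those with none. Their median widths were 2400, 1800 and 1500 bp in the same order. The H3K27ac islands over the missing regions had median score percentiles of 49.9 and 50.7 in late KO and of 49.8 and 53.9 in late WT. For the regions in all 8 DNase lists the medians were 78.1 and 78.8 in late KO and 76.4 and 79.2 in late WT.

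Around the centre of the missing regions, H3K27ac was lower at 2 kb than at the centre in every group. At the centre, 71.3% of the regions were inside an island in late KO, 71.9% in late WT, 75.2% in early KO and 65.9% in early WT, as means of 2 libraries. At 2 kb from the centre the values were 22.4% in late KO, 22.6% in late WT, 24.4% in early KO and 24.5% in early WT. At 10 kb they were 14.8% in late KO and 14.8% in late WT. Late KO and late WT thus differed by less than 1 percentage point at these 3 distances. At the centre of the regions in all 8 DNase lists, 95.1% were inside an H3K27ac island in late KO and 93.9% in late WT.

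**Figure D3:**
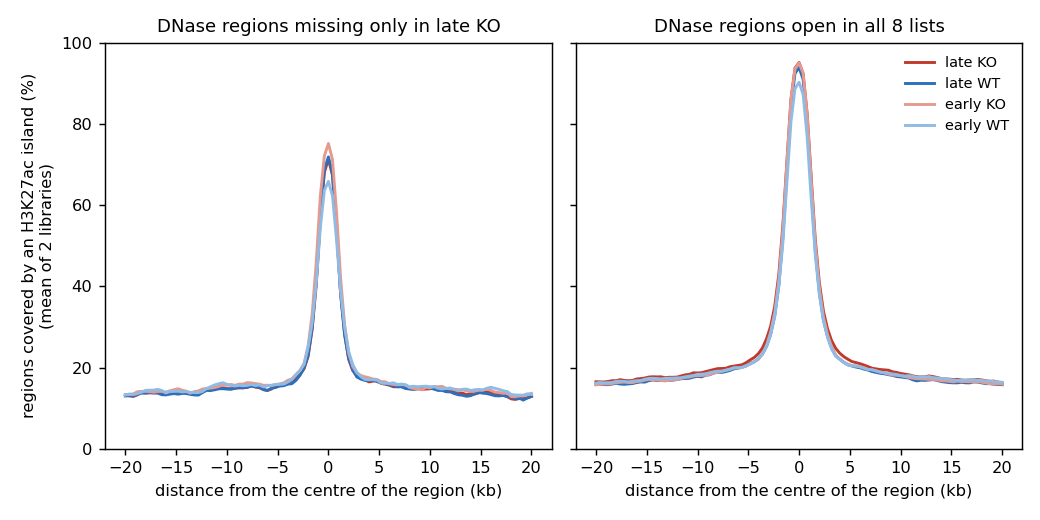
Percent of regions inside an H3K27ac island (vertical axis) by distance from the centre of the region in kb (horizontal axis), as the mean of the 2 libraries of each group, for the missing regions and the regions in all 8 DNase lists. For the missing regions, late KO peaks at 71.3% and late WT at 71.9%.

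The amount of H3K27ac was compared region by region, as the kb of the 5-kb window covered by islands. Averaged over the 3045 regions it was 2.11 ± 0.12 kb in late KO, 2.13 ± 0.0045 kb in late WT, 2.28 ± 0.024 kb in early KO and 2.08 ± 0.024 kb in early WT (SD, n = 2 each). For the test, log2(kb + 0.5) was fitted with limma over the 34807 regions whose window held an island in at least 2 of the 8 libraries. Of the missing regions 2540 passed this filter and 505 did not. A region was called where its Benjamini-Hochberg adjusted p over all 34807 was under 0.05.

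In late KO against late WT, 72 missing regions had lower H3K27ac (2.83% of 2540, against 2.21 percent of all regions tested) and 38 had higher H3K27ac (1.50%, against 3.71 percent). The other 2430 (95.7%) were not called, and 331 had an unadjusted p under 0.05. Of the tested regions in the same 6 DNase lists and 1 late KO list, 0.916% were lower and 1.79% higher. Of those in all 8 DNase lists, 0.312% were lower and 0.952% higher. A lower share of rises than over all regions tested was thus shared by these sets, and their share of falls was below that of the missing regions. The log2 change of the 2540 had a median of −0.04, with 5% below −1.07 and 5% above 0.88. The median was the same over all regions tested and equalled the value of windows filled in all 8 libraries. It is thus set by the centring and says nothing about the missing regions. The balance of the calls rested on late WT replicate 2: without it, 41 missing regions were lower and 93 higher, against 1.24% and 5.40% of all regions tested. Without centring of the libraries, 59 were lower (2.32%, against 2.17 percent of all regions tested) and 48 higher (1.89%, against 4.04 percent). Of these calls 55.1% were lower, against 65.5% with centring. A region that was not called is not shown to be unchanged, since 2 libraries a group leave changes of moderate size uncalled.

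**Figure D4:**
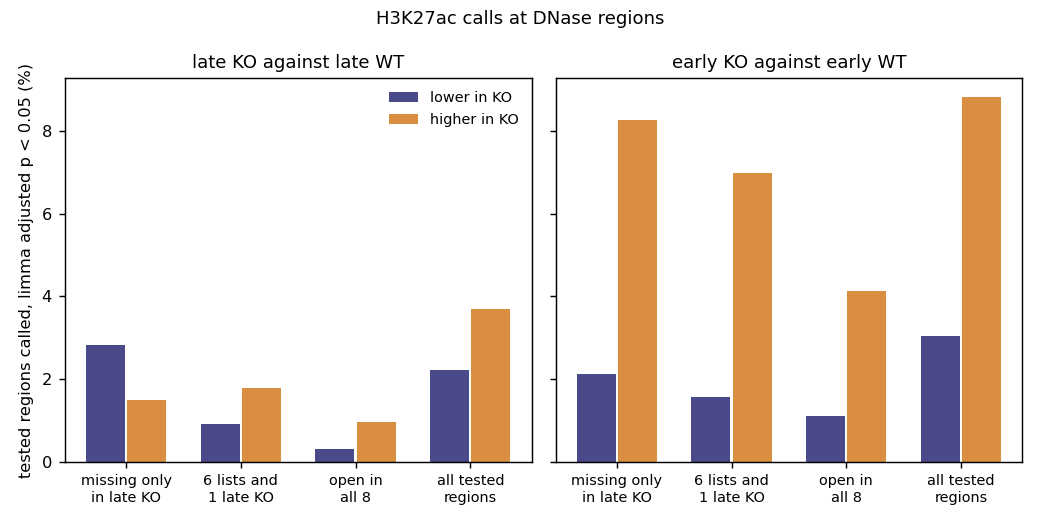
Percent of tested regions called lower and higher in H3K27ac (limma, adjusted p under 0.05), for the missing regions and for all 34807 tested regions, in each comparison. In late KO against late WT, 2.83% of the missing regions are lower and 1.50% higher, against 2.21% and 3.71% of all regions.

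The mean H3K27ac coverage of the 72 regions that fell was 0.868 kb in late KO, 2.65 kb in late WT, 2 kb in early KO and 2.48 kb in early WT. In 41 of them (56.9%) neither late KO library held an H3K27ac island. Of the 72, 8 were also called lower and 2 higher in early KO against early WT, and at 32 the late and early changes differed (limma interaction, adjusted p under 0.05). Over all 770 regions called lower late, 154 were also lower and 18 higher early, and the stages differed at 467. The shares were 11.1% of the 72 against 20% of the 770 for lower early, and 44.4% against 60.6% for a difference between stages.

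The largest fall was on chromosome 1 at 184917801 to 184921600. The window held 0 and 0 kb in late KO, against 3.2 and 3.0 kb in late WT, 3.0 and 3.4 kb in early KO, and 3.8 and 4.0 kb in early WT (late limma adjusted p = 0.000783). The 6 other libraries were all at 3.0 kb or above, so late KO alone lacked both the DNase and the H3K27ac island. On chromosome 11 at 31637001 to 31639400 it held 0 and 0 kb in late KO, against 2.2 and 2.0 kb in late WT, 2.9 and 4.1 kb in early KO, and 3.9 and 4.3 kb in early WT (adjusted p = 0.000874). Its mean DNase percentile, 75.8, was the highest of the 10 largest falls. Both falls were lost when only the upper 50% of each H3K27ac list by score was used (limma adjusted p = 0.996 each). Only 11 of the 29 results for named regions had a value with this setting.

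At chromosome 11, 116229001 to 116232400, coverage was 0 and 0 kb in late KO, against 2.2 and 4.0 kb in late WT, 1.8 and 3.0 kb in early KO, and 4.4 and 4.8 kb in early WT (limma adjusted p = 0.0026). On chromosome 11 at 5311001 to 5314000 the values were 0.2 and 0 kb in late KO, against 2.4 and 3.6 kb in late WT, 3.6 and 3.6 kb in early KO, and 3.2 and 3.6 kb in early WT (adjusted p = 0.0014). On chromosome 13 at 98450001 to 98451600 they were 0 and 0 kb in late KO, against 3.1 and 1.4 kb in late WT, 3.9 and 3.1 kb in early KO, and 4.3 and 3.7 kb in early WT (adjusted p = 0.0054). In these 3 regions both late KO libraries were below all 6 others. The falls at 5311001 on chromosome 11 and at 98450001 on chromosome 13 were also lost with the upper 50% of each list (adjusted p = 0.996 each). The fall at 116229001 on chromosome 11 had no value with that setting.

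Further falls of this kind were found on chromosome 1 at 37373601 to 37376400 and on chromosome 9 at 110818001 to 110819800, both at 0 in late KO. The first had 2.4 and 2.2 kb in late WT (limma adjusted p = 0.00143), and the second 2.0 and 2.8 kb (adjusted p = 0.0272). The second was no longer called when any 1 of the 4 late libraries was left out, with limma adjusted p between 0.0794 and 0.152. It was also lost with 2-kb windows (adjusted p = 0.0700), a pseudocount of 2 kb (0.0520), no centring (0.0713), quantile normalization (0.198) and lists of equal length (0.164). The first was lost with H3K27ac lists of equal length (adjusted p = 0.125). Neither had a value with the upper 50% of each list. Thus 7 of the 10 largest falls carried H3K27ac in all 4 early libraries.

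The remaining 3 of the 10 were acetylated in late WT alone. Coverage in late WT was 3.2 and 2.8 kb on chromosome 16 at 32792001 to 32796200 (limma adjusted p = 0.000783). It was 2.6 and 2.4 kb on chromosome 12 at 17616801 to 17618200 (adjusted p = 0.000783). On chromosome 9 at 65592001 to 65593600 it was 2.6 and 2.0 kb in late WT (adjusted p = 0.000881). All 3 were at 0 in both late KO and in all 4 early libraries. They passed the filter of at least 2 libraries only through late WT, the group where they were high. Their p-values are therefore no support for a fall. They had no value when either late WT library was left out, or with the upper 50% of each H3K27ac list. They were open in the early DNase lists, which the rule required, without an H3K27ac island there.

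The 38 regions that rose had a mean of 2.56 kb in late KO, 0.625 kb in late WT, 2.50 kb in early KO and 0.996 kb in early WT. Neither late WT library held an island in 24 of them (63.2%). Also 24 of the 38 were called higher in early KO against early WT, and the late and early changes differed at 9. Over all 1290 regions called higher late, 781 were also higher early and the stages differed at 400. The shares were 63.2% of the 38 against 60.5% of the 1290 for higher early, and 23.7% against 31.0% for a difference between stages. The 2 comparisons use separate libraries but share 1 estimate of the spread.

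All 10 of the largest rises were called higher in early KO too, with early limma adjusted p between 0.000304 and 0.00946, and none passed the test of the difference between stages. On chromosome 5, the region at 63256201 to 63257800 had 4.0 and 2.8 kb in late KO and 3.4 and 3.4 kb in early KO, with 0 in all 4 WT libraries (late adjusted p = 0.000783). The region at 77602801 to 77604200 of the same chromosome had 3.4 and 2.4 kb in late KO and 3.4 and 3.2 kb in early KO, and also 0 in all 4 WT libraries (late adjusted p = 0.000812). At these places the late KO cells held H3K27ac that no WT library showed, while the DNase islands were present in WT and in early KO and missing in late KO.

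The same arrangement, with 0 in all 4 WT libraries, was found on chromosome 5 at 36199001 to 36202200, where coverage was 3.0 and 2.0 kb in late KO and 2.6 and 2.2 kb in early KO. On chromosome 10 at 74898201 to 74901000 it was 2.3 and 2.5 kb in late KO and 2.1 and 1.9 kb in early KO. On chromosome 13 at 9323801 to 9325400 it was 2.8 and 2.0 kb in late KO and 1.6 and 2.2 kb in early KO. The regions on chromosome 15 at 5380801 to 5382800 (2 and 2 kb in late KO), on chromosome 17 at 8096401 to 8098200 (2.8 and 1.4 kb) and on chromosome 7 at 16847401 to 16849600 (4.2 and 3.6 kb) also had 0 in all WT libraries. Late limma adjusted p was between 0.000861 and 0.00444 for these 6. With H3K27ac lists of equal length, the rises at 8096401 on chromosome 17 and at 16847401 on chromosome 7 were lost (adjusted p = 0.573 and 0.135). The rise at 16847401 was also lost with 2-kb windows (limma adjusted p = 0.349), 10-kb windows (0.162) and quantile normalization (0.0502).

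The remaining rises had a trace of coverage in 1 WT library. On chromosome 7 at 65643201 to 65644800 the values were 2.5 and 2.0 kb in late KO, 0 in both late WT, 3.5 and 3.5 kb in early KO, and 0.1 and 0 kb in early WT. On chromosome 11 at 119050801 to 119052600 they were 2.0 and 3.0 kb in late KO, against 0 and 0.2 kb in late WT, 2.2 and 1.6 kb in early KO, and 0 in both early WT. The first was not called with the upper 50% of each list (limma adjusted p = 0.996) or with quantile normalization. The other was not called with lists of equal length (limma adjusted p = 0.222). Of the 10 largest rises, only those at 16847401 and 65643201 on chromosome 7 had a value with the upper 50% of each list. The 10 largest rises lay 0.4 to 25.6 kb from the nearest late KO DNase island, and the 10 largest falls 3.8 to 139.4 kb.

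**Figure D5:**
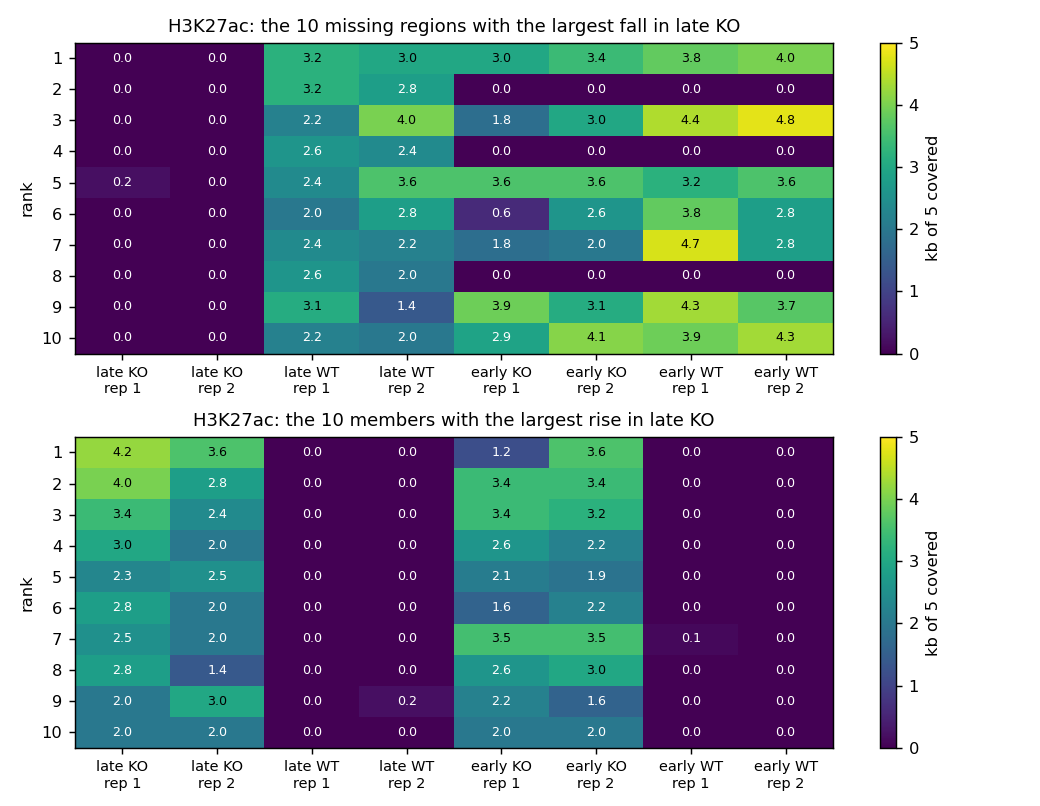
H3K27ac coverage of the 5-kb window in kb (colour scale, 0 to 5) in each of the 8 libraries (columns) for the 10 missing regions with the largest fall and the 10 with the largest rise in late KO against late WT (rows). The falls are at 0 to 0.2 kb in both late KO libraries, and the rises at 0 to 0.2 kb in the 4 WT libraries.

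The early comparison gave more rises than falls. In early KO against early WT, 54 missing regions were lower (2.13%, against 3.03 percent of all regions tested) and 210 higher (8.27%, against 8.83 percent). The 54 became 19 without early WT replicate 1, 32 without early WT replicate 2 and 35 without early KO replicate 2. The 54 averaged 2.04 kb in early KO and 3.71 kb in early WT, and 10 of them (18.5%) had no island in either early KO library. The 210 averaged 2.53 kb in early KO and 0.412 kb in early WT, and 150 (71.4%) had no island in either early WT library. These regions had DNase islands in all 4 early libraries by the rule, so those 150 were open in early WT without an H3K27ac island.

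The largest early rise was on chromosome 3 at 97768401 to 97773800. H3K27ac filled the 5-kb window in both late KO, both late WT and both early KO libraries, and was at 0 in both early WT (early limma adjusted p = 0.000295). On chromosome 11 at 70602401 to 70607200 coverage was 4.4 and 4.2 kb in late KO, against 4.5 and 4.0 kb in late WT, 4.5 and 4.5 kb in early KO, and 0 in both early WT (adjusted p = 0.000295). On chromosome 5 at 36159401 to 36162600 it was 3.4 and 3.6 kb in late KO, against 4.6 and 3.4 kb in late WT, 4.3 and 4.2 kb in early KO, and 0 in both early WT (adjusted p = 0.000295). In all 3, early WT alone lacked the mark. With the upper 50% of each list the first was not called (adjusted p = 0.526).

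The largest early falls were of the opposite kind. On chromosome 4 at 119748601 to 119750400 the mark was at 0 in late KO, late WT and early KO, and at 3.8 and 5.0 kb in early WT (early limma adjusted p = 0.000299). This region passed the filter only through early WT, the group where it was high, so its p-value is no support for a fall. On chromosome 17 at 30502401 to 30503800 the mark was at 0 in late KO, against 1.4 and 1.0 kb in late WT, at 0 in early KO, and at 3.6 and 3.2 kb in early WT (early limma adjusted p = 0.000304, late 0.00239). On chromosome 2 at 162747401 to 162748600 it was at 0 in late KO, against 0 and 0.6 kb in late WT, at 0 in early KO, and at 3.2 and 2.2 kb in early WT (early adjusted p = 0.00584).

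The change in KO against WT was lower late than early at 152 missing regions (5.98%, against 6.05 percent of all regions tested) and higher late than early at 15 (0.591%, against 2.28 percent). Of the tested regions in the same 6 DNase lists and 1 late KO list, 4.58% were lower and 1.05% higher. Of those in all 8 DNase lists, 2.44% were lower and 0.460% higher. The 15 became 50 without late WT replicate 2, 28 without early KO replicate 1 and 8 without early WT replicate 1. The 152 averaged 1.79 kb in late KO, 2.177 kb in late WT, 2.26 kb in early KO and 0.517 kb in early WT, so early WT was the group that stood apart. The 15 averaged 1.81 kb in late KO, 0.883 kb in late WT, 1.46 kb in early KO and 2.41 kb in early WT. A region on chromosome 15 at 58361201 to 58363000 changed in opposite directions. It had 0.2 and 0 kb in late KO, against 2.2 and 2.4 kb in late WT, 2.0 and 2.6 kb in early KO, and 0 in both early WT (limma adjusted p = 0.00141 late, 0.000613 early and 0.00294 for their difference). The difference was not called with the upper 50% of each H3K27ac list (adjusted p = 0.261).

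With time, late KO against early KO gave 116 lower missing regions (4.57%, against 4.17 percent of all regions tested) and 42 higher (1.65%, against 3.39 percent). Late WT against early WT gave 103 lower (4.06%, against 4.28 percent) and 214 higher (8.43%, against 8.37 percent). These comparisons share libraries with the KO comparisons at each stage, so their counts are not separate evidence.

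The H3K27ac of the missing regions varied with their rank in the DNase lists. In 4 classes of equal size by mean DNase percentile, low to high, 63.7%, 74.5%, 79.2% and 83.4% had an H3K27ac island in late KO, as means of 2 libraries. In late WT the shares were 63.9%, 75.8%, 79.4% and 85.9%. The late KO mean was below the late WT mean in each class, by less than the SD of 3.72 points between the late WT libraries over all 3045 regions. In the highest class 24 of 703 tested regions (3.41%) were lower in late KO and 6 (0.853%) higher, and in the lowest class 11 of 548 were lower (2.01%) and 13 higher (2.37%), against 2.21 percent and 3.71 percent of all regions tested. Of the tested regions in all 8 DNase lists, with a median mean percentile of 78.0, 0.312% were lower and 0.952% higher. Whether the shares of calls follow DNase rank was not tested. Without late WT replicate 2 the highest class held 15 lower and 17 higher regions, when 1.24% and 5.40% of all regions tested were called.

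When every DNase list was reduced to its 17397 highest-scoring islands, the length of the shortest, 425 regions were missing only in late KO. The counts for the other groups were 91 missing only in late WT, 126 missing only in early KO and 198 missing only in early WT. Of the 3045 regions, 365 (11.99%) kept their islands in all 6 lists at this length and 555 kept them in none. The 365 had a median mean DNase percentile of 62.8, against 42.3 for the other missing regions. H3K27ac islands lay at 85.8% of the 365 in late KO, 88.9% in late WT, 90.1% in early KO and 83.6% in early WT. In late KO against late WT, 2.21 percent of all regions tested were lower and 3.71 percent higher. Of the tested regions in all 8 DNase lists, 0.312% were lower and 0.952% higher. Of the 365 regions 340 were tested, and 21 of these (6.18%) were lower and 2 (0.588%) higher. These counts became 11 lower and 9 higher without late WT replicate 2, and 14 lower and 1 higher without late WT replicate 1.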

How the data were processed

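H3K27ac ChIP-seq and DNase-seq were deposited as 1 island list per library. The tools were CASAVA 2.18, Bowtie2 and SICER 1.1 and the build was mm9, per the submitters' processing notes. The lists give each island's position and the authors' score, which served only for ranks and filters inside a list. They came without counts, so depth is unknown. SICER joins enriched 200-bp windows into islands. The gene table at hand was of GRCm38 and coordinates were not converted, so genes, start sites, sequence motifs and markers were not analysed here.

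From the lists, regions, windows and coverage were computed as the report states. Libraries were centred on the median of windows covered in all 8 and all 4 groups were fitted without a block in limma 3.58.1 (R 4.3.3), with trended eBayes. Where both libraries of a group are at 0 or fill the window, that group's spread is set by floor or cap. There p rests on the spread shared across regions. The Results therefore give named regions in kb. Their log2 values appear only in the closing sections, and their size depends on the pseudocount. In 107 regions the window overlapped that of another missing region, and 82 regions were wider than it. The fit was tested on simulated data. Other steps used Python 3.11.15, numpy 2.4.6 and pandas 2.3.3.

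Named were the 10 highest in DNase percentile, the 10 largest late falls and rises, 3 each for the early and stage tests, the widest, the lowest and those just outside. The regions, lists and tests were chosen with earlier results of these data known. Alternatives covered window, pseudocount, filter, centring, list length, score, overlap, merging, a replicate block and each library left out. Centring on the mean and counts of regions acetylated in both late KO lists were added after the data were seen.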

Additional observations from a re-analysis of the deposited data

Results flagged for a closer look

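At 16 missing regions the KO change in H3K27ac differed between the late and the early stage (limma interaction, adjusted p under 0.05) among those the naming rule chose. Apart from a region named for its width, they were chosen by their late change, early change or stage difference. The late and early changes are the parts of that difference, so the count was partly set by the choice. It does not measure how often the stages differed. Of all 2540 missing regions tested, 5.98% were lower and 0.591% higher late than early. The values below are the late log2 change minus the early one on the log2(kb + 0.5) scale. Most of these windows are at 0 in a group, so the size depends on the pseudocount.

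Among the largest late falls, the difference was −2.58 on chromosome 1 at 184917801, −1.68 on chromosome 1 at 37373601, −2.46 on chromosome 9 at 65592001 and −2.14 on chromosome 11 at 31637001. It was −1.94 on chromosome 11 at 116229001, −2.60 on chromosome 11 at 5311001, −2.56 on chromosome 12 at 17616801, −2.19 on chromosome 13 at 98450001 and −2.79 on chromosome 16 at 32792001. The regions at 65592001, 17616801 and 32792001 passed the filter only through late WT, so their calls are no support for a difference.

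Among the regions named for the early change, the difference was 3.30 on chromosome 4 at 119748601 and 1.23 on chromosome 17 at 30502401, where early KO was at 0. The region at 119748601 passed the filter only through early WT, so its call is no support for a difference. The difference was −3.44 on chromosome 3 at 97768401, −3.39 on chromosome 5 at 36159401 and −3.29 on chromosome 11 at 70602401, where early WT was at 0. On chromosome 15 at 58361201, which fell late and rose early, it was −4.70, and it was not called with the upper 50% of each H3K27ac list. On chromosome 9 at 32565601, one of the 3 widest regions, it was −1.02.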

How the results depend on the processing

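The count of 3045 regions became 425 with DNase lists of equal length, 1638 with the upper 50% of each list, 1099 with at least 50% of a region covered, and 3060 to 5664 with each DNase library left out. Of the 425 regions of the full lists that overlap the 425 from lists of equal length, 11 had H3K27ac in late WT alone, 2 in late KO alone and 359 in both late KO lists, and 21 were lower and 3 higher in late KO. In the upper 50% of each H3K27ac list, 91 of the 3045 had it in late WT alone and 1088 in both late KO lists. No share over all regions is at hand for these counts. Of 1547 tested, 78 were lower in late KO than late WT (5.04%, against 2.24 percent of all regions tested). Higher were 34 (2.20%, against 3.18 percent). In early KO 132 were higher (8.53%, against 7.58 percent), and 41 were higher late than early. That last count was 41 with H3K27ac lists of equal length and 23 with 2-kb windows, and the 54 early falls became 23 with 2-kb and 86 with 10-kb windows.

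With each H3K27ac library left out, late WT alone held 68 to 134 regions, late KO alone 46 to 113 and both late KO lists 2277 to 2302. Late falls numbered 41 to 73 and late rises 30 to 93, early falls 19 to 53 and early rises 145 to 254, and regions lower late than early 115 to 187 and higher 8 to 50. A lone remaining library was assumed to vary like the other groups. The replicate numbers did not pair the libraries (correlations of −0.04 to 0.05). With the replicate block, 54 regions fell and 35 rose late, 37 and 192 early, and 145 were lower and 10 higher late than early. Centring on the mean gave 72 and 38 late.

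Of 450 values of the 29 named results under alternatives, 25 were no longer called, in 13 results, and 1 of these changed sign. The late rise on chromosome 7 at 65643201 became −0.034 in log2 with the upper 50% of each list. Alternatives in which a named result had no value are not among the 450. With the upper 50% of each H3K27ac list only 11 of the 29 had a value, and 7 of these were no longer called, besides the change of sign. With late WT replicate 1 left out 26 had a value, and likewise for replicate 2. With another pseudocount, no filter or no centring 20 had one. The causes were not tested. Missing depth and 2 libraries a group limit all of these counts.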
